A study of Homo sapiens and Mus musculus with 12 samples.

Results

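GATA6 peaks remote from SPDEF peaks are the CUT&RUN peaks of GATA6 in HPAF-II cells whose edge lay more than 100 kb from the edge of every SPDEF peak on hg19. Of 10670 GATA6 peaks, 10447 remained after the mitochondrial genome, chromosome 1 below 1 Mb and the surroundings of centromeres were left out. Of these, 6029 were remote, or 57.7% (95% Wilson interval 56.8 to 58.7). The members were selected on the measured positions of both lists, so this share and the distances themselves describe the choice and are not findings. The other GATA6 peaks fell into 2788 nearby peaks, which lay within 100 kb of an SPDEF peak without touching it, and 1630 overlapping peaks, which shared at least 1 bp with an SPDEF peak.

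HPAF-II is an established human pancreatic ductal adenocarcinoma (PDA) cell line, and here it carried HA-tagged human SPDEF in all libraries, so the GATA6 peaks too come from cells with the tagged factor. Per the labels, GATA6 was mapped in 3 libraries (antibody R&D AF1700) and SPDEF, through its HA tag, in 3, beside 1 library each for H3K4me3 and for control IgG; 4 mouse FC1245 libraries were not used here. Each target has a single deposited peak list of chromosome, start and end, with no score and no value per library. The sequencing depth is unknown, no difference could be set against replicate spread, and no test was made. Intervals cover counting error only, and because peaks cluster along the genome they are too narrow.

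CUT&RUN uses an antibody to bring a nuclease to a protein on chromatin and sequences the released fragments. GATA6 is a zinc-finger transcription factor that binds GATA sequences; it acts in the development of the endoderm and pancreas, and its expression marks the classical subtype of PDA. SPDEF is an ETS-family factor of secretory epithelia such as goblet cells and binds sequences with an ETS core. No genome of the hg19 build was given here, so the bases under the peaks were not read, and genes are named only as lying in the same cytogenetic band as a peak. A band holds many genes, and a peak in it is assigned to none of them.

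The remote peaks lay a median of 593.95 kb from the nearest SPDEF peak, with quartiles of 259.1 and 1464 kb. Distances of 100 to 200 kb were held by 1073 of them, 200 to 500 kb by 1649, 500 to 1000 kb by 1235, 1 to 2 Mb by 1032, 2 to 5 Mb by 774 and more than 5 Mb by 266. The histogram of distances, with bins on a log scale, had its highest bars in neighbouring bins reaching up to 1 Mb and no break at the limit. These bins widen in bp with distance, so their counts do not show density, which is given below. Just beyond the limit lay a peak of 251 bp in 3q22.1 (chr3:132036227-132036477) at 100096 bp, one of 423 bp in 5q21.3 (chr5:106907432-106907854) at 100107 bp and one of 920 bp in 6p12.1 (chr6:53498532-53499451) at 100135 bp. Just within it lay a peak of 1275 bp in 1p32.1 (chr1:59350282-59351556) at 99992 bp, one of 290 bp in 16q23.3 (chr16:83129808-83130097) at 99905 bp and one of 1114 bp in 20p11.21 (chr20:22697634-22698747) at 99801 bp.

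**Figure D1:**
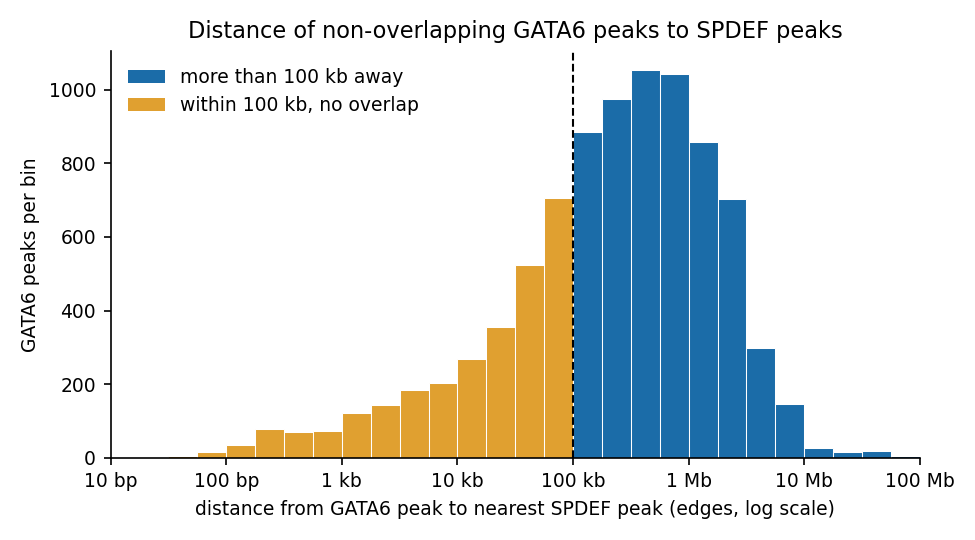
Number of GATA6 peaks (y axis) by distance to the nearest SPDEF peak (x axis, log scale, 4 bins per factor of 10) for the peaks that overlap none; the 6029 remote peaks are blue, the 2788 nearby peaks orange, the dashed line is the 100 kb limit, and 1 peak under 10 bp is not drawn. The counts climb through the limit to 1053 and 1043 peaks in neighbouring bins reaching up to 1 Mb and then decline. The bins widen in bp with distance.

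Where the genome was far from SPDEF peaks, GATA6 peaks were sparser. Territory more than 100 kb from every SPDEF peak made up 87.8% of the 2820 Mb counted and held 2.43 GATA6 peak midpoints per Mb (exact 95% Poisson interval 2.37 to 2.50). Territory within 100 kb held 12.8 per Mb (12.4 to 13.2). The density declined at every step of distance: 337.6 per Mb up to 1 kb, 17.7 from 1 to 10 kb, 6.92 from 10 to 50 kb and 5.43 from 50 to 100 kb. Within the remote territory it went on declining, with 4.39 per Mb from 100 to 200 kb, 3.36 from 200 to 500 kb, 2.54 from 500 to 1000 kb, 1.94 from 1 to 2 Mb, 1.64 from 2 to 5 Mb and 1.05 (0.923 to 1.18) beyond 5 Mb. No interval of neighbouring zones overlapped in the remote territory, but the intervals are too narrow because peaks cluster. The zones sort peaks by the distance that the rule used, so the decline is given as a description. The density was lower in the remote territory than within 100 kb on 23 of 23 chromosomes counted, chromosome Y not being among them. Territory was set by distance from SPDEF peaks alone. Unmappable sequence was only partly left out, and its part in the decline was not tested.

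**Figure D2:**
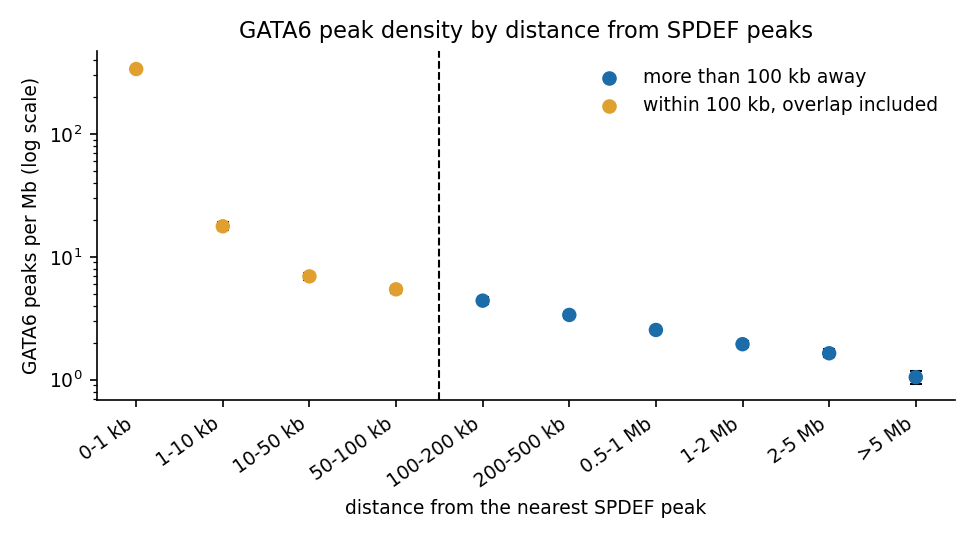
GATA6 peak midpoints per Mb of territory (y axis, log scale) in 10 zones of distance from the nearest SPDEF peak (x axis), with exact 95% Poisson intervals; blue zones lie beyond the 100 kb limit (dashed line) and orange zones within it. The points descend at every step, and beyond the limit they reach 1.05 per Mb in the farthest zone.

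Remote peaks had a median width within 2 bp of that of nearby peaks and were narrower than overlapping ones. Their median width was 325 bp (quartiles 229 and 584, range 1 to 2834), against 327 bp for nearby peaks (224 and 602) and 499 bp for overlapping peaks (304 and 899). Width was not used by the rule. More than 500 bp wide were 1798 remote peaks, or 29.8% (28.7 to 31.0), against 30.8% of nearby peaks (29.2 to 32.6) and 49.8% of overlapping peaks (47.3 to 52.2). The remote share minus the nearby share was -1.02 percentage points (-3.10 to 1.03), an interval that includes 0. Against overlapping peaks the difference was -19.9 points (-22.6 to -17.2), an interval that lies below 0 but is too narrow because peaks cluster. A wide peak is more likely to share a base with an SPDEF peak by construction, and the part of this in the difference was not tested.

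At the narrow end the remote peaks stood between the other classes. Under 100 bp were 170 remote peaks (2.82%), against 4.48% of nearby and 0.982% of overlapping peaks, and 2 remote peaks were 1 bp wide. Wider than 1 kb were 7.07% of remote peaks, against 7.17% of nearby and 20.6% of overlapping peaks. Among the 100 widest GATA6 peaks, 31 were remote, 16 nearby and 53 overlapping. Over all GATA6 peaks kept, the shares were 57.7%, 26.7% and 15.6%, so nearby peaks too were fewer among the widest. Going through the GATA6 peaks by quartile of width, narrowest to widest, the remote share was 62.3%, 61.8%, 55.8% and 50.8%, while the overlapping share was 7.27%, 12.6%, 17.7% and 24.9%.

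Within the remote peaks, width hardly moved with distance. The median was 324 bp at 100 to 200 kb, 330 bp at 200 to 500 kb, 324 bp at 500 to 1000 kb, 321.5 bp at 1 to 2 Mb, 319 bp at 2 to 5 Mb and 338 bp beyond 5 Mb. The share over 500 bp stayed between 27.1% in the farthest class and 31.1% at 500 to 1000 kb.

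**Figure D3:**
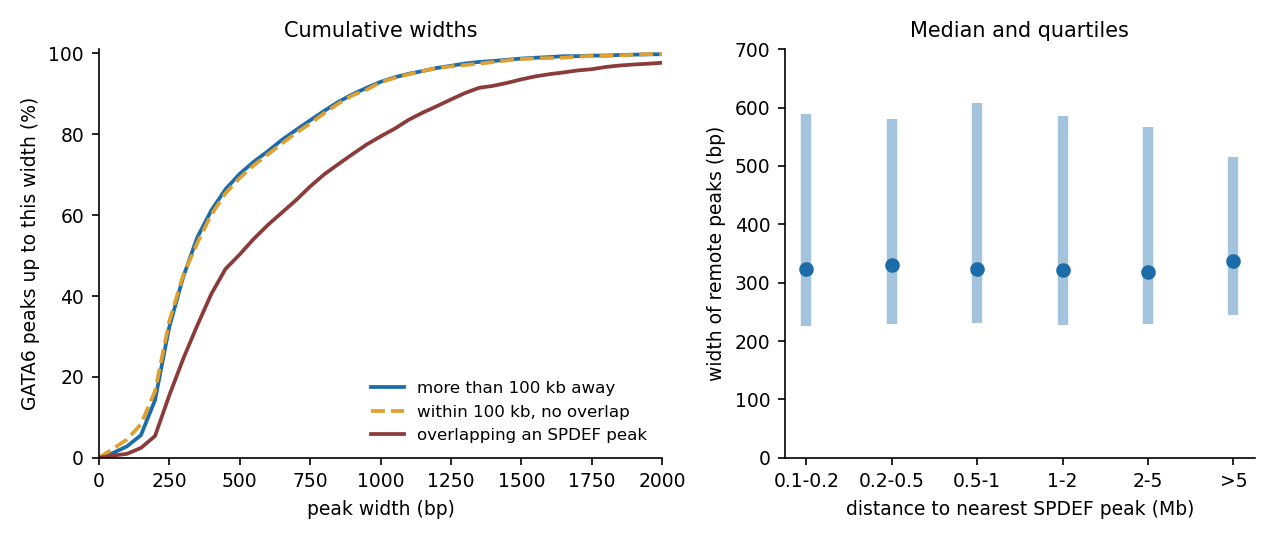
Left, percent of GATA6 peaks (y axis) up to a given width (x axis, bp) for remote (blue), nearby (orange, dashed) and overlapping peaks (dark red); right, median (point) and quartiles (bar) of the width of remote peaks (y axis, bp) by distance to the nearest SPDEF peak (x axis, Mb). The blue and orange curves run together while the dark red one lies to the right, and the 6 medians on the right stay between 319 and 338 bp.

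The 5 widest remote peaks were single wide sites. The widest measured 2834 bp and lay in 1q31.2 (chr1:192669559-192672392), 140.5 kb from an SPDEF peak; it ranked 5 among all GATA6 peaks, and the band holds RGS1, RGS2, RGS13, RGS18 and RGS21, which encode regulators of G-protein signalling. The next measured 2750 bp and lay in 17q24.1 (chr17:62923633-62926382), 220.3 kb from SPDEF, in a band with 6 protein-coding genes, among them AXIN2, an inhibitor and target of Wnt signalling. A peak of 2586 bp in 11q14.1 (chr11:80304498-80307083) was 2.31 Mb from any SPDEF peak. One of 2537 bp lay in 2q22.3 (chr2:147788441-147790977), 156.8 kb away, in a band with 4 genes that include ZEB2, a repressor of epithelial genes. One of 2531 bp lay in 2q24.2 (chr2:162947565-162950095), 1.53 Mb away, in a band that holds GCG, the glucagon gene, and DPP4, a peptidase that cleaves glucagon-like peptides. Of these peaks, the one in 2q24.2 had another GATA6 peak 13.9 kb away; the nearest GATA6 neighbours of the other 4 lay 59.9 to 242.5 kb away.

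Remote peaks were more often alone. The nearest other GATA6 peak lay a median of 31.4 kb from a remote peak (quartiles 2.66 and 129.5 kb), against 6.22 kb for nearby and 15.4 kb for overlapping peaks. A GATA6 neighbour within 12500 bp was found for 2316 remote peaks, or 38.4% (37.2 to 39.6), against 60.8% of nearby peaks (59.0 to 62.6) and 47.7% of overlapping peaks (45.3 to 50.1). The differences were -22.4 points (-24.6 to -20.2) against nearby peaks and -9.25 points (-12.0 to -6.54) against overlapping peaks. No GATA6 neighbour within 100 kb was found for 30.6% of remote peaks, against 5.13% of nearby and 19.8% of overlapping peaks. Spacing is not independent of the rule: 1796 of 2775 SPDEF peaks, or 64.7%, overlapped a GATA6 peak, so a GATA6 peak near an SPDEF peak often has a GATA6 neighbour by construction.

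Among remote peaks, those at 100 to 200 kb from SPDEF had the closest GATA6 neighbours and those beyond 5 Mb the farthest. The median neighbour distance lay between 31.3 and 35.7 kb in the classes from 200 kb to 5 Mb, against 22.03 kb at 100 to 200 kb and 63.5 kb beyond 5 Mb. A neighbour within 12500 bp was present for 43.1%, 38.1%, 36.6%, 37.1%, 39.1% and 32.7% of the peaks from the nearest to the farthest class. The farthest class was thus both the sparsest and the one with the fewest close neighbours.

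When GATA6 peaks within 12500 bp of each other were joined, 962 clusters held remote peaks only, 12 were mixed and 908 held none. The remote clusters took in 2296 peaks, and 3713 remote peaks (61.6%) stayed single. They were mostly pairs, with a median of 2 peaks and a maximum of 8. Clusters of at least 5 peaks made up 24 of the remote ones (2.49%), against 72 of those without remote peaks (7.93%). The median span was 3.56 kb for remote clusters, against 5.21 kb for those without.

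A pair of clusters reached 8 peaks. One in 11q24.1 (chr11:122007668-122022501) held peaks of 14 to 1422 bp and lay 669.8 kb from any SPDEF peak; the other, in 1q42.3 (chr1:234735836-234749368), had peaks of 69 to 790 bp and lay 109.8 kb away. The first band includes SORL1, an endosomal sorting receptor, and the second IRF2BP2, a transcriptional corepressor. The next 3 clusters held 7 peaks each. The one in 12q21.33 (chr12:89318648-89354752) had the widest members, with a median of 689 bp and a maximum of 1606 bp, 264.6 kb from SPDEF, in a band with DUSP6, a phosphatase that acts on ERK, and BTG1, an antiproliferative factor. In 3q12.3 (chr3:101881806-101914303) the cluster lay 103.9 kb from SPDEF, close to the limit, in a band that includes NFKBIZ, a nuclear regulator of NF-kB targets. The cluster in 14q13.3 (chr14:36677586-36697476) lay 399.1 kb away in a band of 6 genes, among them NKX2-1, a lung and thyroid transcription factor, NKX2-8 and PAX9.

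Remote peaks lay in stretches between consecutive SPDEF peaks. A longer stretch has room for more of them by construction, so these counts are a description. Of 1020 stretches that held any, 213 held 1 and the median was 3. The 200 stretches with at least 10 (19.6%) held 3296 remote peaks (54.7%). They were picked for their counts, and their large part is not a finding. Most peaks, 47, lay in a stretch of 16.6 Mb on 18q21.31 to 18q22.3 (chr18:55710826-72265111). The next held 42 in 23.4 Mb of 4q31.21 to 4q32.3 (chr4:142600090-166033751), then 40 in 11.0 Mb of 9q21.13 to 9q21.32 (chr9:74755502-85748007) and 36 in the last 61.9 Mb of the long arm of chromosome 13 (chr13:53226896-115169878). A tie at 31 joined chr10:17105116-30092867, chr4:23086629-39640543 and chr6:88412446-110283108.

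Peak density in these stretches was uneven: the stretch on chromosome 9 held 3.64 remote peaks per Mb, the one on chromosome 18 held 2.84, the longer one on chromosome 4 held 1.79 and that on chromosome 13 held 0.581. Median widths of 280 to 399 bp in these 7 stretches bracketed the 325 bp of all remote peaks. The 5 peaks farthest from SPDEF all lay in the chromosome 13 stretch, 4 in 13q34 and 1 in 13q33.3. The farthest, 516 bp wide (chr13:113365906-113366421), was 60.1 Mb from an SPDEF peak and 1.75 Mb from the next GATA6 peak. The others (chr13:111617438-111617716, chr13:111032494-111033078, chr13:110972284-110972721 and chr13:108745896-108746342) were 279 to 585 bp wide and lay 58.4, 57.8, 57.7 and 55.5 Mb away.

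By chromosome, the remote share depends on the number of SPDEF peaks through the rule, so SPDEF counts are given beside it. The highest shares were 90.1% on chromosome 13 (109 of 121 GATA6 peaks, 15 SPDEF peaks), 84.4% on chromosome 18 (151 of 179, 15 SPDEF peaks) and 83.3% on chromosome 4 (320 of 384, 74 SPDEF peaks). The lowest shares were 31.6% on chromosome 20 (115 of 364, 178 SPDEF peaks), 34.8% on chromosome 14 (215 of 617, 240 SPDEF peaks) and 39.7% on chromosome 12 (370 of 931, 336 SPDEF peaks). Few SPDEF peaks did not always go with a high share. Chromosomes 22 and 21, with 17 and 20 SPDEF peaks (0.331 and 0.416 per Mb), had remote shares of 64.9% and 63.8%. Chromosome 10, with 109 (0.804 per Mb), had 71.2%. However, 41 of these 109 lay in 10q11.21, where 20 GATA6 peaks near the centromere were left out. The SPDEF counts leave out no region. The share exceeded 50% on 19 of 23 chromosomes. On all 23 the remote share of the length was above the remote share of the GATA6 peaks, which is another form of the lower density in remote territory given above.

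Counted per Mb of chromosome, the order was another. Chromosome 5 had 2.87 remote peaks per Mb (2.63 to 3.13) and chromosome 12, in spite of its low share, 2.76 (2.49 to 3.06). Over the full length, short arms included, the lowest of the chromosomes counted were 22 with 0.936 and 13 with 0.946. Within remote territory, where acrocentric short arms were left out, chromosome 13 was lowest with 1.18 GATA6 peaks per Mb. Chromosome X had 1.35 there and chromosome 22 had 1.62. Chromosome 20, with the lowest share, held 1.82 remote peaks per Mb (1.51 to 2.19), so chromosome 13 exceeded it in share and stood below it in density. Remote peaks wider than 500 bp were 182 of 519 on chromosome 5 (35.1%) and 124 of 370 on chromosome 12 (33.5%), against 6 of 48 on chromosome 22 and 16 of 93 on chromosome 19 (17.2%). Over all remote peaks the share was 29.8%. These chromosomes were picked as the highest and lowest, chromosome Y aside, and some counts are small.

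**Figure D4:**
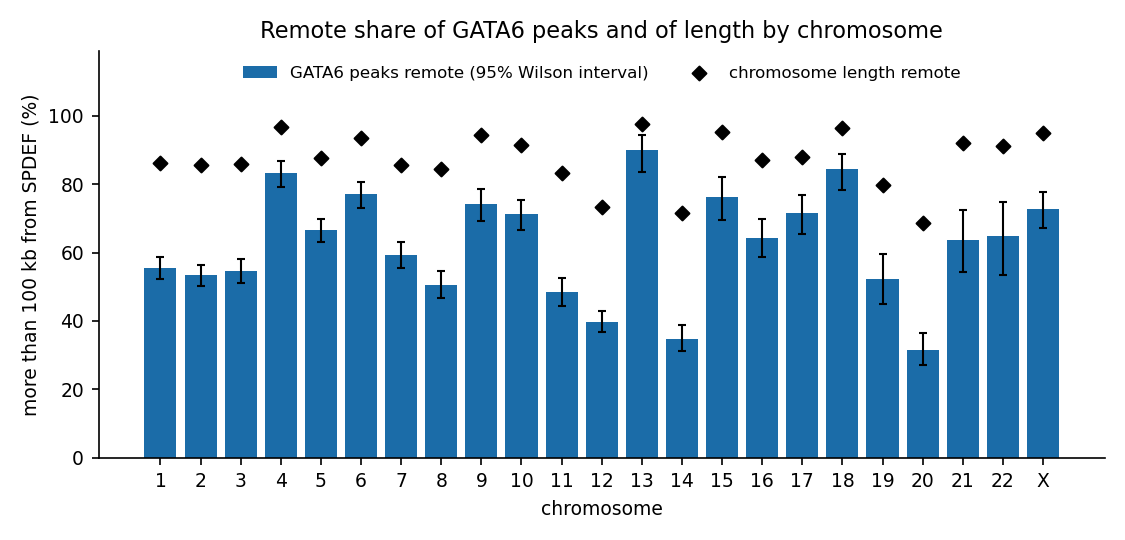
Bars show the percent of GATA6 peaks that were remote (y axis) on each chromosome (x axis, Y left out) with 95% Wilson intervals, and diamonds the percent of the chromosome's counted length more than 100 kb from an SPDEF peak. The diamonds lie above every bar; the highest bar is chromosome 13 at 90.1% and the lowest chromosome 20 at 31.6%.

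The remote share was higher in darker Giemsa bands, the late-replicating and gene-poor ones. It was 67.0% in the darkest bands (837 of 1250; 64.3 to 69.5), then 62.4%, 60.6% and 56.2% in the lighter grey classes, and 53.7% in unstained bands (2884 of 5366; 52.4 to 55.1). SPDEF peaks moved the other way, with 0.397 per Mb in the darkest and 1.24 per Mb in unstained bands. Through the rule, fewer SPDEF peaks leave more GATA6 peaks remote, so these shares describe the choice. The remote peaks themselves were spread more evenly, at 1.68, 2.13, 2.23, 2.38 and 2.21 per Mb in the same order. Their width differed between the classes: more than 500 bp wide were 34.8% (31.6 to 38.1) of remote peaks in the darkest and 35.4% (32.3 to 38.6) in the next class, against 27.6% (26.0 to 29.3) in unstained bands. Median widths were 354, 358, 322, 313.5 and 319 bp from the darkest to the unstained class.

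Bands with a GATA6 peak, chromosome Y left out, were sorted by protein-coding genes per Mb into quartiles. From fewest genes to most, the remote share was 67.4%, 63.3%, 55.6% and 46.6%, shares that the rule and the SPDEF peaks set. Genes were counted in GRCh38 bands and divided by hg19 band lengths, which can differ for bands of the same name. In 19p13.13 this gave 37 genes over 0.1 Mb, or 370 per Mb, the highest value. Remote peaks per Mb were 1.62, 2.58, 2.57 and 2.01, highest in the middle quartiles, while SPDEF peaks per Mb were 0.379, 0.771, 1.17 and 1.77.

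Remote peaks reached 739 of the 753 bands with a GATA6 peak. The most lay in 5q32, with 44 of 48 GATA6 peaks remote, a band that holds the SPINK gene cluster of serine protease inhibitors, SPINK1 of the pancreas included. It was followed by 5q11.2 with 42 of 66 (the collagen-binding integrins ITGA1 and ITGA2, the cytokine receptor subunit IL6ST), 12q21.33 with 41 of 64, and 5q14.3 with 35 of 38 (the transcription factor MEF2C). Then came 1q41 with 34 of 60 (TGFB2, a TGF-beta ligand), 2q31.1 with 33 of 55, 12q21.2 with 33 of 76, Xp22.2 with 32 of 38, 14q12 with 32 of 59 and 3q28 with 31 of 52 (TP63, a regulator of squamous and basal epithelium, and the tight junction gene CLDN1). Remote peaks per Mb ranged from 3.54 in 1q41 to 11.4 in 12q21.33, against 2.14 over all bands with a GATA6 peak. These bands were picked for their counts, and their excess is not a finding.

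Of 411 bands with at least 10 GATA6 peaks, 44, or 10.7%, had every peak remote, and these 44 held 581 remote peaks. An SPDEF peak was present in 3 of them. The rule leaves little room for SPDEF peaks in such bands, so these counts describe the choice. The largest were 15q14 and 7p21.2 with 21 peaks each, 2q23.3 with 19, 10q21.2 with 18 and 18q12.1 with 17. In 7p21.2 the 6 genes include ETV1, an ETS factor, and MEOX2, a homeobox factor. The band 18q12.1 holds CDH2, the N-cadherin gene, and the desmosomal cadherins DSC1 to DSC3 and DSG1 to DSG4, and its peaks lay a median of 4919 kb from SPDEF. A tie at 16 peaks joined 16q12.2, 18q21.32, 2p22.1, 5p15.1, 7q31.2 and 8q23.3. Among their genes are IRX3 and IRX5 in 16q12.2, and MET, a receptor tyrosine kinase, and CFTR, the chloride channel of ductal epithelium, in 7q31.2, where the median distance was 4290 kb.

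At the other end, 13 of the 411 bands, or 3.16%, had at most 10% of their GATA6 peaks remote. The rule and the SPDEF peaks in these bands set this share too. The most peaks among them lay in 12q13.13, a band of keratin genes such as KRT7, with 1 of 39 remote beside 34 SPDEF peaks, and in 14q23.3 with 2 of 37. In 7q32.3 none of 10 was remote, which with a Wilson interval of 0 to 27.8% leaves room for some; its genes are MKLN1, PODXL and PLXNA4.

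The bands of GATA6 and its relatives had remote shares on both sides of the 57.7% of all GATA6 peaks. Over the 9 bands of the GATA family and its cofactors, 104 of 155 GATA6 peaks were remote, or 67.1% (59.4 to 74.0), a share that the rule and the SPDEF peaks in these bands set and that is given as a description. The band of GATA6 itself, 18q11.2, had 16 of 22 remote, that of GATA4, another endodermal GATA factor, 23 of 35 in 8p23.1, and that of GATA3, a factor of T cells and luminal epithelium, 15 of 20 in 10p14. TRPS1, an atypical GATA factor that represses transcription, had 16 of 16 in 8q23.3, a band with 1 other gene and no SPDEF peak. The cofactor genes ZFPM1 (16q24.2) and ZFPM2 (8q23.1) had 8 of 9 and 7 of 12. The bands of the blood-cell factors GATA1 (Xp11.23) and GATA2 (3q21.3) had 9 of 17 and 5 of 8, and that of GATA5 (20q13.33) had the lowest share, 5 of 16 beside 14 SPDEF peaks.

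The widest remote peak of some of these bands was looked up after the values were seen. In 18q11.2, remote peaks were 207 to 1264 bp wide, the widest being chr18:20131441-20132704, 1074 kb from SPDEF. In 8p23.1 they reached 812 bp (chr8:8483035-8483846) and in 10p14 777 bp (chr10:9304649-9305425). Remote peaks in 8q23.3 had a median of 481 bp, 8 of 16 were wider than 500 bp, and the widest had 1249 bp (chr8:117049143-117050391).

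The bands of the endoderm transcription factors ranged from all GATA6 peaks remote to none. Over the 20 bands of the 22 genes, 205 of 393 GATA6 peaks were remote, or 52.2% (47.2 to 57.1), beside 57.7% of all GATA6 peaks. All were remote in the bands of KLF4 (9q31.2, 12 of 12), ONECUT1 (15q21.3, 9 of 9) and KLF5 (13q22.1, 8 of 8). KLF4 and KLF5 are zinc-finger factors of epithelial differentiation, and ONECUT1, also known as HNF6, acts in pancreatic and bile duct development. The band of KLF5 has 3 protein-coding genes, PIBF1, KLF5 and KLF12, and its peaks lay a median of 20.6 Mb from SPDEF.

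High shares were also found in the bands of SOX9, a factor of pancreatic progenitor and duct cells (17q24.3, 24 of 29), ONECUT2 (18q21.31, 8 of 9), SOX17, a factor of early endoderm (8q11.23, 7 of 8), HNF4G (8q21.13, 6 of 7) and PROX1 (1q32.3, 8 of 11). The band of SOX9 holds 8 genes, 1 SPDEF peak and 6.32 remote peaks per Mb. A GATA6 neighbour within 12500 bp was found for 16 of its 24 remote peaks, against 38.4% of all remote peaks. Such neighbours were also found for 11 of 16 in the band of GRHL2, 8 of 12 in that of KLF4 and 10 of 16 in that of TRPS1. In the band of NR5A2 it was 4 of 27. The widest remote peak in the band of SOX9 measured 1937 bp (chr17:70678209-70680145), 1074 kb from SPDEF. The 8 remote peaks in the band of KLF5 were 212 to 888 bp wide, and none had a GATA6 neighbour within 12500 bp.

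Shares near or under 50% were found in the bands of HHEX (10q23.33, 5 of 10), FOXA3 (19q13.32, 9 of 19), NR5A2 and ELF3 together (1q32.1, 27 of 58), FOXA1 (14q21.1, 4 of 9), EHF (11p13, 13 of 30) and GRHL2 (8q22.3, 16 of 38). FOXA1 to FOXA3 are pioneer factors of the endoderm, ELF3 and EHF epithelial ETS factors like SPDEF, and GRHL2 a regulator of epithelial junctions. Lower still were the bands of HNF4A (20q13.12, 11 of 36, 22 SPDEF peaks) and FOXA2 (20p11.21, 6 of 23, 7 SPDEF peaks). The band of PDX1, a master regulator of pancreas development, and CDX2, an intestinal factor, had 0 of 7 remote with 6 SPDEF peaks (13q12.2; Wilson interval 0 to 35.4%). That of ISL1 (5q11.1) lies at the centromere, and its 7 GATA6 peaks were left out.

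**Figure D5:**
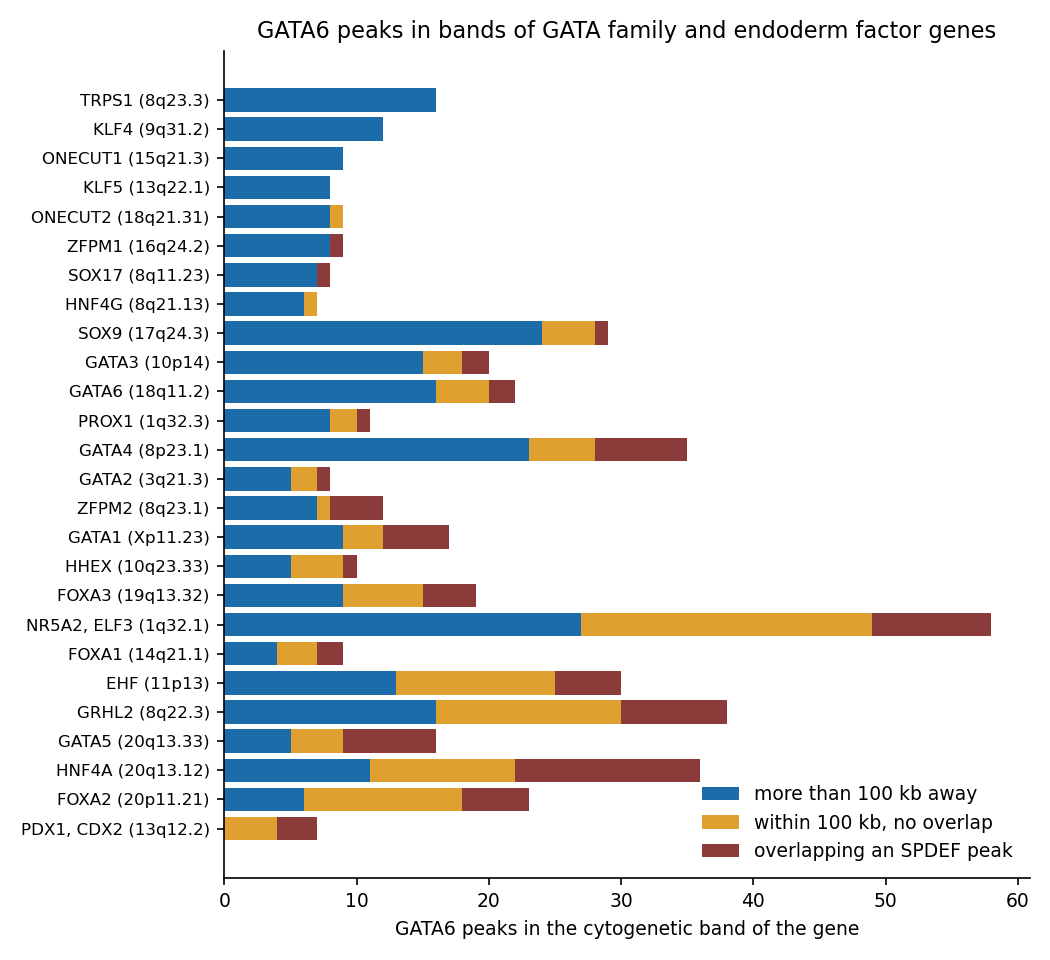
Number of GATA6 peaks (x axis) in the cytogenetic band of the GATA family and endoderm factor genes described (y axis, band in parentheses), split into remote (blue), nearby (orange) and overlapping peaks (dark red), with the highest remote share on top. The bands of TRPS1, KLF4, ONECUT1 and KLF5 are wholly blue, and that of PDX1 and CDX2 has no blue.

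Other gene groups ranged more widely in share than in remote density, and all had shares below the 57.7% of all GATA6 peaks, the neuronal one with an interval that includes it. These shares too describe the choice. The remote share was 56.1% (51.3 to 60.8) in the bands of neuronal genes, 52.1% (47.6 to 56.5) in those of classical PDA genes, 52.0% (47.4 to 56.6) in those of epithelial-mesenchymal transition genes, 38.8% (34.2 to 43.5) in those of basal-like PDA genes and 32.5% (26.4 to 39.3) in those of mucin genes. SPDEF peaks per Mb in the same order were 1.16, 1.35, 1.69, 2.17 and 3.08, and 0.951 in the GATA family bands. Remote peaks per Mb lay between 2.35 in the mucin bands and 2.62 in the bands of neuronal and of epithelial-mesenchymal transition genes. The low remote share of the mucin bands, 65 of 200 GATA6 peaks, thus stood beside about the same number of remote peaks per Mb as in the GATA family bands, 2.54.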

How the data were processed

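The deposited peak lists of GATA6 and of HA-tagged SPDEF in HPAF-II were used; the lists deposited by the authors give the chromosome, start and end of each peak in bp and no score. Per the submitters' processing notes, the tools were MACS2 2.2.7.1, Bowtie2 2.4.4, deepTools and SAMtools 1.14, and the builds were mm10 and hg19. The role of each tool, the control, the threshold and whether the 3 libraries of a target were combined are not given in the sources used here. No human peak ended past an hg19 chromosome, whereas 29 GATA6 and 18 SPDEF peaks ended past an hg38 chromosome. Left out were 220 GATA6 peaks within 1 Mb of a centromere band, 2 on chromosome 1 below 1 Mb and 1 on the mitochondrial genome; 102 of these 223 lay beyond 100 kb. Positions are printed counting from 1.

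Distances were taken between edges and overlap as at least 1 bp shared. Densities in remote territory, within 100 kb and by zone of distance came from peak midpoints and territory in steps of 100 bp. Chromosome Y and the short arms of chromosomes 13, 14, 15, 21 and 22 were left out of them. Remote peaks per Mb of a chromosome, band or stretch were counted over its full length. Bands came from circlize 0.4.16 in R 4.3.3, and the counts and plots were made with scipy 1.17.1, pandas 2.3.3, numpy 2.4.6 and matplotlib 3.10.9 under Python 3.11.15. Genes were tied to bands by name through a RefSeq table of another build (GRCh38.p14); all 134 genes of 7 lists had a band, and all 862 band names were the same in both builds. Shares carry Wilson, densities exact Poisson and differences of shares Newcombe intervals, all at 95%. The functions were tested on simulated data.

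The members, lists and thresholds were chosen with earlier results of these data known. Named are the 5 widest and 5 farthest remote peaks, 3 peaks on each side of the limit, the 5 fullest stretches and largest clusters, the 10 bands with the most and the 10 with the highest share of remote peaks, ties included, and the genes of the GATA family and endoderm factor lists, of which some are not reported here; bands with at most 10% remote were added. The planned reading of sequence under the peaks was not done, since no genome of the build was given. Alternatives varied the distance limit, the peaks counted, the comparison peaks, the joining distance and the scale.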

Additional observations from a re-analysis of the deposited data

How the results depend on the processing

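No paired analysis was possible because the lists hold no value per library, only 1 set of positions for a target; leaving out a library could not be done for the same reason. The 6029 remote peaks became 3307 with a limit of 500 kb and 2785 among the wider 50% of GATA6 peaks. They numbered 6861 and 4956 with limits of 50 and 200 kb, 6035 by midpoints, 5859 without peaks under 100 bp and 7714 when the wider 50% of SPDEF peaks set the distance. The share of remote peaks over 500 bp wide minus that of all other GATA6 peaks, -8.00 points, was -4.01 among the wider 50% of GATA6 peaks, -5.05 with a limit of 500 kb, -19.9 against overlapping and -1.02 against nearby peaks. The difference in peaks with a GATA6 neighbour, -17.5 points, was -12.9 with a limit of 500 kb, -9.25 against overlapping and -22.4 against nearby peaks, -13.4 for neighbours within 5 kb and -21.2 within 25 kb. The remote share of chromosome 13 was 2.85 times that of chromosome 20, and 1.87 times when the wider 50% of SPDEF peaks set the distance. In remote peaks per Mb of chromosome the ratio was 0.519, which turned the direction, chromosome 13 holding 0.946 and chromosome 20 holding 1.82. The 44 bands with all peaks remote became 7 among the wider 50% of GATA6 peaks, 110 with the wider 50% of SPDEF peaks and 109 with a minimum of 5 peaks. The remote share in the GATA family bands minus that in other bands was 9.53 points (1.74 to 16.5). It was 2.32 (-5.02 to 8.41) with the wider 50% of SPDEF peaks. The same change took the endoderm list from -5.76 to -5.87, classical PDA from -5.93 to -7.52 and epithelial-mesenchymal transition from -5.95 to -7.34. Basal-like PDA went from -19.7 to -16.6, neuronal from -1.63 to -1.61 and mucin from -25.7 to -25.8. These differences describe the choice. Density in remote territory over that within 100 kb, 0.190, was 0.181 with chromosome Y and the acrocentric short arms, and 0.140, 0.238 and 0.287 with limits of 50, 200 and 500 kb; these alternatives were added after seeing the data. The alternatives for sequence content were not run. With unknown depth, a stretch without an SPDEF peak may hold SPDEF sites below the unstated threshold, and remote peaks are remote only from the listed peaks.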
